A study of Mus musculus with 65 samples.

Results

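Dbx1 and Dbx2 are the 2 members described here, out of 25239 genes in the expression table. They were chosen by name, as the rows of the 2 Dbx genes, and were followed through all 25 groups of day, SAG concentration and sorted cell type. Both encode homeodomain transcription factors that are known from the intermediate neural tube, the region where ventral and dorsal spinal cord meet. In the embryo Dbx1 marks p0 progenitors, which give rise to V0 commissural interneurons, and Dbx2 covers a wider territory that includes p0 and p1. Sonic hedgehog (Shh) signalling restricts both genes to this level, and the homeodomain proteins NKX6.1 and NKX6.2 are known repressors of them on the ventral side.

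The 65 libraries came from HM1 cells, a single line of mouse embryonic stem (ES) cells, that were differentiated towards spinal cord. The cells were neuromesodermal progenitors (NMPs) on day 3 (n = 3), before any SAG, and then received retinoic acid with 0, 10, 100 or 500 nM SAG, an agonist of the Shh receptor component Smoothened. On days 4, 5 and 6 they were fixed, stained inside the cell and sorted as SOX2-positive neural progenitors (NPs) of 4 types. p0-1 denotes p0 and p1 progenitors taken as a single population, positive for PAX6 and without NKX6.1, from 0 and 10 nM SAG. p2 cells carried both PAX6 and NKX6.1 and came from 10 and 100 nM, pMN cells carried OLIG2, and p3 cells carried NKX2.2, the last 2 types coming from 100 and 500 nM. On days 5 and 6 every group had 3 libraries except pMN and p3 at 500 nM on day 6, with 2 each. On day 4 the groups had 1 to 3 libraries. The values are reads per gene that the authors divided by a size factor for each library, called normalised reads here, so that 1 read was worth 0.717 to 1.359. The libraries held 7615114 to 13484815 reads and detected 9718 to 15963 genes. In sorted bulk cells, fewer expressing cells and less RNA per expressing cell cannot be told apart. p0-1 shared no SAG concentration with pMN or p3, so cell type and SAG cannot be told apart between them.

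Neither Dbx protein was used in the sort, whereas Nkx6-1, Olig2, Nkx2-2 and Pax6 encode proteins that were. On days 5 and 6 the RNA of these 4 genes followed the gates in part. Nkx6-1 ran from 0 to 67.5 normalised reads in the 12 p0-1 libraries and from 134 to 702 in the 12 p2 libraries. Olig2 was highest in pMN (3574 ± 1320, SD, n = 11), Nkx2-2 in p3 (255 ± 90.9, n = 11), and Pax6 was present in all 12 p0-1 and all 12 p2 libraries. The means of the gate genes thus followed the labels, but Olig2 and Pax6 RNA were not confined to the types gated on their proteins. Olig2 had reads in 11 of 12 p2 libraries (0 to 1452) and in 10 of 11 p3 libraries (0 to 1741). Its lowest pMN library held 1368. The paper describes its p3 cells as lacking OLIG2. A p0-1 library of day 5 at 10 nM held 102.6 normalised reads of Olig2. Pax6 had reads in all 11 pMN and all 11 p3 libraries, with means of 1525 and 222.6.

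Each gene has a single transcript of 4 exons in the deposited annotation, which follows mouse build mm10. Dbx1 lies on the minus strand at chr7:49631499-49636835, with 2077 bases of exon. Dbx2 lies on the minus strand at chr15:95623563-95654771, with 2271 bases of exon spread over 31209 bases. No other gene overlapped either of them in the deposited annotation or in GENCODE vM21.

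The 250 bases before each start site are shown because transcription of the 2 members begins there. They come from RefSeq on GRCm38.p6 and are written 5′ to 3′ on the strand of the gene, from chr7:49636836-49637085 for Dbx1 and chr15:95654772-95655021 for Dbx2. Capitals mark ATTGT, the core that SOX factors such as the sorting marker SOX2 recognise.
Dbx1 promoter: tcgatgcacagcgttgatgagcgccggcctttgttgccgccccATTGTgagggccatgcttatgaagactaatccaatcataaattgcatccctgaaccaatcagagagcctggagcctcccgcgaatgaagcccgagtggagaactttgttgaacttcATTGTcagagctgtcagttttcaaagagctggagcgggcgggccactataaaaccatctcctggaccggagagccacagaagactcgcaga
Dbx2 promoter: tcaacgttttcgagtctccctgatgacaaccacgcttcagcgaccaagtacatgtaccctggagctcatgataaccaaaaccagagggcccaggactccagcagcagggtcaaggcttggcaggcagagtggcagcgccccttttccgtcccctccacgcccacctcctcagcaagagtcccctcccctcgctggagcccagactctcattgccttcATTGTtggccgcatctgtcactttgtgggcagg

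In the Dbx1 promoter ATTGT began 207 and 91 bases before the start, and in the Dbx2 promoter 33 bases before it. These letters, searched on both strands over 300 bases from 250 before to 50 after a start, were found in 31% of the 32851 promoters of the table, so a match is common. Another 3 motifs were searched on both strands, TAATTA for homeodomain proteins (5.29% of all promoters), GACCACCCA for GLI factors (0.253%) and AGGTCA for retinoic acid receptors (16.3%). None of these letters occurred in either window, and no matches of the 4 motifs overlapped. The 250 bases held 52.8% G and C in Dbx1 and 58.8% in Dbx2, against a median of 52.4% over all promoters.

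Dbx1 had reads in 28 of the 65 libraries and in 11 of the 25 groups, and the remaining 14 groups were at 0 in every library. The 4 highest group means were the 4 p0-1 groups of days 5 and 6. Below them came p2 at 10 nM on day 5, then p0-1 at 0 nM on day 4, pMN at 100 nM on day 5, p0-1 at 10 nM on day 4 and p2 at 10 nM on day 6. The p2 groups at 100 nM on days 5 and 6 had means of 1.19 and 0.368 normalised reads, about the worth of a single read. Neighbours in this order overlapped from the highest p0-1 group down to the p0-1 groups of day 5, whose lowest library (917) stood above the highest p2 library (429.9). Among the lower groups down to p2 at 10 nM on day 6 the values of neighbours overlapped again.

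**Figure D1:**
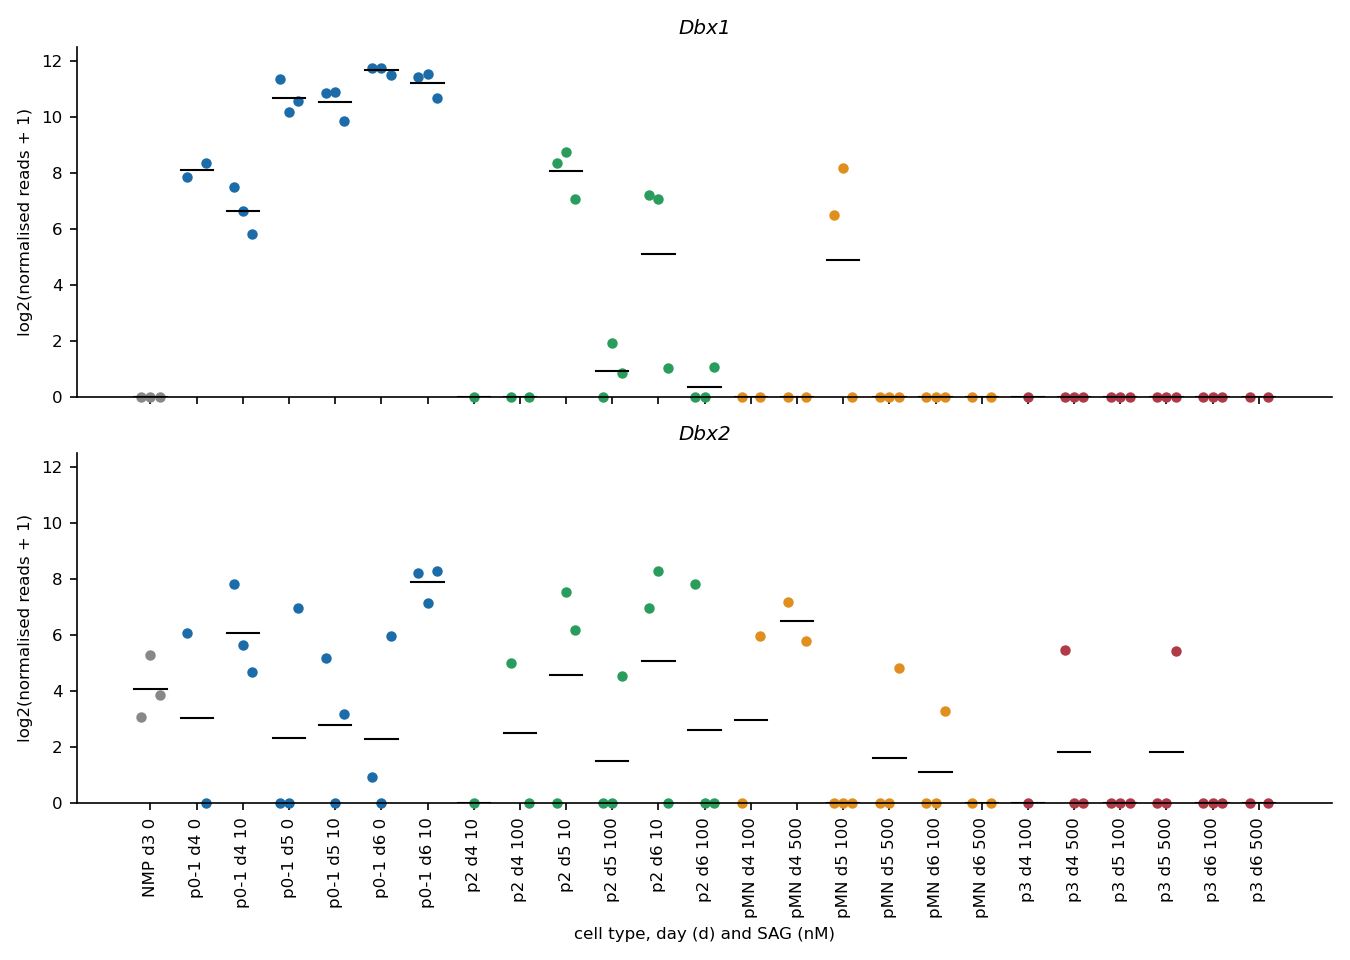
Each point is a library and each bar the mean of a group, on a vertical axis of log2(normalised reads + 1), for Dbx1 (top) and Dbx2 (bottom). Groups run along the horizontal axis by cell type, day (d) and SAG in nM. Dbx1 was present in every p0-1 library, in the 6 p2 libraries of 10 nM on days 5 and 6 (1 of them with 1.06 normalised reads) and in 2 pMN libraries, whereas Dbx2 was at 0 in 36 of the 65 libraries and varied widely within groups.

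The NMPs had no Dbx1 read in any of 3 libraries. One day after neural induction began, the day 4 p0-1 libraries held 229.8 and 329.6 normalised reads at 0 nM and 180.4, 98.3 and 56.1 at 10 nM SAG. All 5 were thus above all NMP libraries. Against a floor of 3 reads per library, p0-1 on day 4 (179 ± 108, SD, n = 5) was at least 54-fold higher than the NMPs. Such floors, here and below, cover counting error only, so these folds are bounds in that sense alone. The log2 change was 7.38 ± 1.15 (SE), with an adjusted p of 8.69e-06 by limma, the linear model that was fitted to all genes and libraries. A gene was called where the Benjamini-Hochberg adjusted p was under 0.01 and the change more than 2-fold, and this comparison called 2.16% of the 13964 genes tested.

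On day 4 Dbx1 was also at 0 in the 3 p2, the 4 pMN and the 4 p3 libraries, so p0-1 overlapped with none of the other types at the first time point after SAG. Against the same floor p0-1 was at least 62.2-fold higher than p2, 73-fold higher than pMN and 63-fold higher than p3. The log2 change of Dbx1 was 7.38 in each of these contrasts, and the limma adjusted p was 0.000506 against p2, 1.8e-05 against pMN and 3.73e-06 against p3. The shares of all genes called were 0.0286%, 0.1% and 6.02%, so that Dbx1 was among 4 of 13964 genes that separated p0-1 from p2 on day 4. These contrasts share the p0-1 libraries and are not independent of each other. In p0-1 against pMN and p3 on day 4 the median of all genes lay at 0.145 and 0.368 on the log2 scale, well under the change of Dbx1. When only the compared libraries entered the fit, the calls against p2 (adjusted p = 0.0785 by limma) and pMN (0.0333) were lost, and edgeR did not call the contrast with p2 either (0.0883). An exact permutation test over libraries gave its smallest possible p in all 3, 0.0179 for 5 against 3 libraries and 0.00794 for 5 against 4.

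The mean of Dbx1 in p0-1 was higher on day 5 than on day 4, and higher still on day 6. On day 5 the libraries held 2615, 1151 and 1511 normalised reads at 0 nM and 1843, 1905 and 917 at 10 nM. On day 6 they held 3459, 3475 and 2920 at 0 nM and 2750, 2976 and 1636 at 10 nM. No day 5 library overlapped with day 4, while days 5 and 6 overlapped. The mean of day 5 (1657 ± 606, n = 6) was 9.26-fold that of day 4, a log2 change of 3.23 ± 0.96 that was not called by limma (adjusted p = 0.0989, in a contrast that called 0.337% of genes). It was called with a pseudocount of 10 (3.15, adjusted p = 0.00118) and with only the compared libraries in the limma fit (0.00771). The mean of day 6 (2869 ± 673, n = 6) was 1.73-fold that of day 5, and this change was not called (log2 0.83 ± 0.90, 95% interval -0.99 to 2.65, adjusted p = 0.946 by limma, 0.0645% of genes called). These SEs rest on a spread shared by all 25 groups and do not measure that of p0-1 alone. Into it enter p2 at 10 nM on day 6 (148.2, 133.6 and 1.06) and pMN at 100 nM on day 5 (88.8, 288.5 and 0). The unadjusted exact permutation p over libraries was 0.00216 for day 5 against day 4 and 0.0195 for day 6 against day 5.

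Across the 4 cell types of days 5 and 6, the mean of Dbx1 was ordered p0-1, p2, pMN and p3. The 12 p0-1 libraries ran from 917 to 3475 normalised reads with a median of 2260. The 12 p2 libraries ran from 0 to 429.9 with a median of 1.94, and 9 of them had reads. In pMN 2 of 11 libraries had reads, 88.8 and 288.5, and all 11 p3 libraries were at 0. Every p0-1 library was above every library of the other 3 types.

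The mean of p0-1 (2263 ± 880, n = 12) was 23.1-fold that of p2 (97.8 ± 145, n = 12), and limma put the log2 change at 7.42 ± 0.64 with an adjusted p of 1.34e-11. This contrast called 0.322% of genes. The changes were 9.81 ± 0.66 against pMN (adjusted p = 1.24e-15, 0.96% of genes called) and 11.03 ± 0.66 against p3 (2.26e-17, 1.43%). Per day, p0-1 was at least 658-fold higher than p3 on day 5 and at least 1075-fold higher on day 6, against the floor of 3 reads per library. This floor covers counting error only. Each of the 3 unadjusted permutation p-values, with libraries exchanged within days, was 1e-05, the smallest that 100000 resamples can give. The exchange took libraries as independent. Libraries of different SAG concentrations and cell types may share a differentiation, so these p-values may be too small. The excess of p0-1 over p2 was not found to differ between day 4 and days 5 and 6, with a log2 difference of 0.03 ± 1.36 and a 95% interval of -2.70 to 2.76 (adjusted p = 1 by limma). In this interaction limma called 0 genes (0%, with 269 at an unadjusted p under 0.05), edgeR called 0 and DESeq2 226.

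Of the neighbours below p0-1, p2 and pMN were not separated (log2 change 2.39 ± 0.66, adjusted p = 0.091 by limma, with 0.107% of genes called), and neither were pMN and p3 (1.22 ± 0.68, 0.514, with 0.695% called). p2 and p3 were, with a log2 change of 3.61 ± 0.66 and an adjusted p of 0.000369 in a contrast that called 1.27% of genes. edgeR gave 6.59 and an adjusted p of 0.0124 for p2 against p3 and did not call it. The reads in p2 came almost entirely from 1 of its SAG concentrations.

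**Figure D2:**
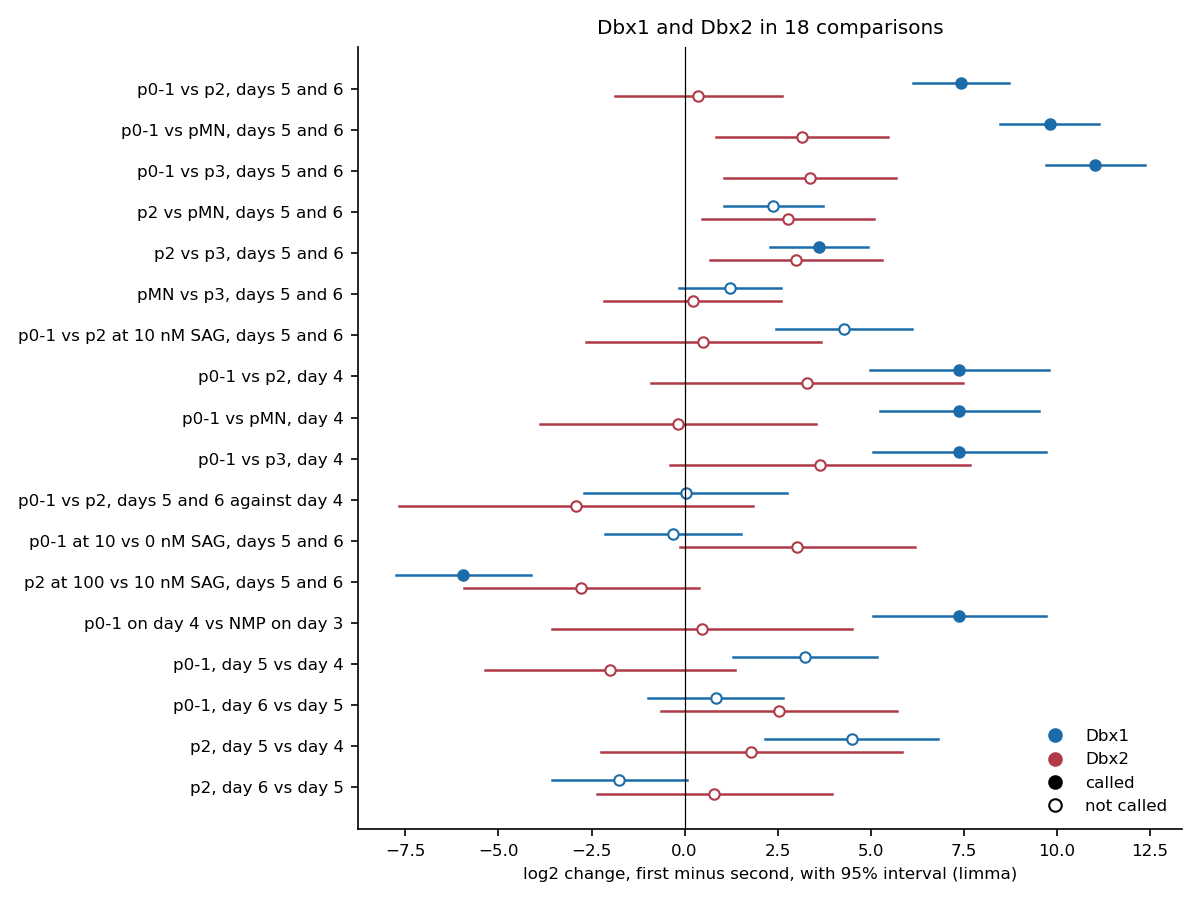
Points are log2 changes from limma, first group minus second, with 95% intervals, for Dbx1 (blue) and Dbx2 (red) in 18 comparisons. Filled points were called at an adjusted p under 0.01 and more than 2-fold. Dbx1 was called in 9 comparisons and Dbx2 in 0, where 0 to 6.02% of all genes were called per comparison.

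Dbx1 was present in p2 cells made with 10 nM SAG and at or near 0 in those made with 100 nM. At 10 nM the p2 libraries held 322.9, 429.9 and 133.8 normalised reads on day 5 and 148.2, 133.6 and 1.06 on day 6. At 100 nM they held 0, 2.77 and 0.789 on day 5 and 0, 0 and 1.10 on day 6, at most 3 reads in any library. Of the 6 libraries at 10 nM 5 stood above all 6 at 100 nM, and the day 6 library with 1.06 lay within their range.

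The p2 cells of 10 nM were at least 67.6-fold higher than those of 100 nM (195 ± 154 against 0.778 ± 1.09, n = 6 each), relative to 3 reads per library. In limma the change from 10 to 100 nM was -5.95 ± 0.905 with an adjusted p of 0.000246, and Dbx1 was 1 of the 5 genes called, or 0.0358% of those tested. The median of all genes in this comparison was -0.14. The call was lost after quantile normalisation (-4.87, adjusted p = 0.022) and with only the compared libraries in the limma fit (-5.95, 0.252), where the groups at 0 no longer enter the estimate of the spread. An exact permutation test with libraries exchanged within days gave an unadjusted p of 0.01, where 0.005 was the smallest possible. The only p2 library of 10 nM on day 4 was at 0, as were both of 100 nM. Within p2 neither change between days was called for Dbx1, 4.49 ± 1.15 from day 4 to day 5 (adjusted p = 0.0623 by limma, 0.193% of genes called) and -1.75 ± 0.905 from day 5 to day 6 (0.47, 0.15%).

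In p0-1 no change of Dbx1 with SAG was called. Its 6 libraries at 0 nM ran from 1151 to 3475 with a median of 2767, and its 6 libraries at 10 nM from 917 to 2976 with a median of 1874. The 2 sets overlapped, and the log2 change from 0 to 10 nM was -0.31 ± 0.905 with a 95% interval of -2.14 to 1.50 (adjusted p = 1 by limma, 0.0143% of genes called). This interval again rests on the spread shared by all groups, not on that of p0-1 alone. The contrast in p2 spans 10 to 100 nM and that in p0-1 spans 0 to 10 nM, so they are given side by side and were not compared.

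At 10 nM SAG, the concentration that both types share, all 6 p0-1 libraries had more Dbx1 than all 6 p2 libraries. The fold between the means was 10.3 over both days, 5.26 on day 5 and 26 on day 6. The log2 change of 4.29 ± 0.905 missed the limma threshold (adjusted p = 0.0253, in a contrast that called 3 genes or 0.0215%), and with a pseudocount of 10 it was called (3.84, 5.16e-05). The unadjusted exact permutation p within days was 0.005, the smallest that 400 arrangements allow. Without the day 6 p2 library at 1.06 the log2 change was smallest, 3.27.

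Markers of the neighbouring types were measured in the same libraries. The 6 p2 libraries of 10 nM had 319 ± 152 normalised reads of Nkx6-1, against 19.3 ± 27.8 in p0-1 at 10 nM and 404 ± 170 in p2 at 100 nM. Prdm12, which marks p1 progenitors, had reads in 4 of the 6 p2 libraries of 10 nM, with up to 361, and was at 0 in all 6 of 100 nM. Prdm13 was at 0 in all 12 p2 libraries and reached 487 in p0-1. Olig2 averaged 86.6 ± 65 in p2 at 10 nM and 760 ± 557 at 100 nM. Nkx6-2, whose product is known to restrict Dbx1, averaged 126 ± 125 and 455 ± 390 in these sets. The 7 ventral progenitor genes summed to between 253 and 788 in p2 at 10 nM and between 667 and 3602 at 100 nM, with 0 of the 7 called between these sets and a median log2 change of 2.10. The 6 genes of the PAX6-expressing side summed to between 11110 and 14560 at 10 nM and between 7999 and 9867 at 100 nM, with 0 of the 6 called. The ventral sums of the 2 sets overlapped and the PAX6-side sums did not, and the part of these genes in the result was not tested.

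**Figure D3:**
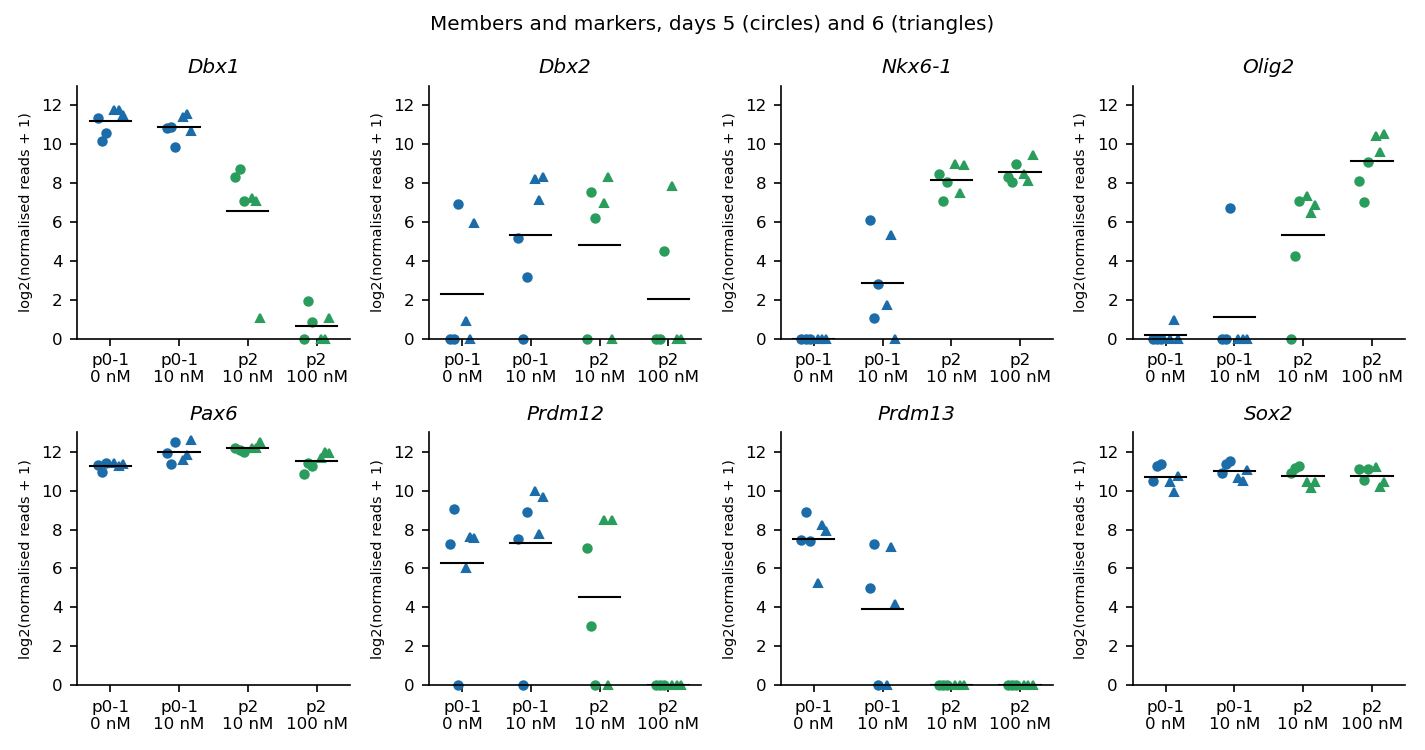
Log2(normalised reads + 1) of the 2 members and 6 markers in p0-1 (blue) and p2 (green) at each SAG concentration, with day 5 libraries as circles, day 6 libraries as triangles and a bar at each mean. Dbx1 stepped down between p2 at 10 nM and p2 at 100 nM, while Nkx6-1 was present in all 12 p2 libraries and Prdm13 in none of them.

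In pMN, Dbx1 was found in 2 of the 3 libraries of day 5 at 100 nM, with 88.8 and 288.5 normalised reads, and in no other of the 15 pMN libraries of days 4 to 6. In those 2 libraries Olig2 was at 2851 and 1368, against 3025 in the third, and 1368 was the lowest Olig2 value of the 11 pMN libraries of days 5 and 6. Nkx6-1 was at 389 and 308 against 589, and Prdm12 and Prdm13 were at 0 in all 3. The 7 ventral genes summed to 4226 and 2381 against 5195, and the 14 dorsal genes to 92 and 182.3 against 68.2. The 6 PAX6-side genes summed to 5783 and 5938 against 6917. The library with more Dbx1 had the lowest ventral sum of the 11 pMN libraries, its dorsal sum lay within their range (0.994 to 262.6), and its PAX6-side sum was below that of the library without Dbx1. The part of cells of another type in these libraries was not tested. Without both libraries, a setting chosen after the values were seen, limma called p2 above pMN (log2 change 3.61, adjusted p = 0.00124), and the change between pMN and p3 became 0.

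Dbx2 behaved otherwise. It had reads in 29 of the 65 libraries, nearly as many as Dbx1, but these were scattered over 18 of the 25 groups. In 14 of the 23 groups with at least 2 libraries, 1 library was at 0 and another above 3 reads, against 1 such group for Dbx1. Only 4 groups had Dbx2 reads in every library, among them the NMPs with 7.44, 38.3 and 13.6 normalised reads. The level of Dbx2 in a library was therefore known only to within the wide spread of its group.

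The highest Dbx2 values were found in p0-1 and p2. On day 6 p0-1 held 298, 141.4 and 311.9 normalised reads at 10 nM and 0.902, 0 and 60.8 at 0 nM. On day 5 it held 34.8, 0 and 8.12 at 10 nM and 0, 0 and 122.3 at 0 nM. On day 6 all 3 libraries at 10 nM were above all 3 at 0 nM, and on day 5 the 2 sets overlapped.

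In p2 the values were 0, 186.3 and 71.9 on day 5 and 123.5, 312.4 and 0 on day 6 at 10 nM. At 100 nM they were 0, 0 and 22.1 on day 5 and 226.7, 0 and 0 on day 6. At both concentrations libraries without a read stood beside libraries with many.

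On days 5 and 6 the mean of Dbx2 was 81.5 ± 115 in p0-1 and 78.6 ± 109 in p2 (n = 12 each), 3.25 ± 8.34 in pMN and 3.83 ± 12.7 in p3 (n = 11 each). Reads were found in 8 of 12 p0-1, 6 of 12 p2, 2 of 11 pMN and 1 of 11 p3 libraries. The values of all 4 types overlapped because each held libraries at 0. p0-1 and p2 were not separated (log2 change 0.37 ± 1.11, 95% interval -1.86 to 2.61, adjusted p = 0.974 by limma), an interval that leaves room for several-fold differences either way.

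Against the ventral types the estimates were higher and missed the threshold. SAG differed along with cell type in these contrasts, fully for p0-1 and in part for p2. The log2 change of Dbx2 was 3.15 ± 1.15 for p0-1 against pMN (adjusted p = 0.188 by limma), 3.37 ± 1.15 against p3 (0.0927), 2.77 ± 1.15 for p2 against pMN (0.337) and 2.99 ± 1.15 against p3 (0.137). The unadjusted permutation p-values within days were 0.0173, 0.0115, 0.048 and 0.0372 in the same order. DESeq2 called all 4 with log2 changes between 12.71 and 17.73, values that rest on groups at 0 in every library and are no bound, and edgeR called none of them. pMN and p3 were not separated (0.22 ± 1.18, 95% interval -2.15 to 2.60, adjusted p = 0.971 by limma).

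Across all 18 comparisons limma called Dbx2 in 0 (4 had an unadjusted p under 0.05), edgeR in 0 and DESeq2 in 5. For Dbx1 limma called 9, 8 with the first group higher and 1 lower, edgeR 7 and DESeq2 9. Of the 13964 genes tested, limma called 0 to 840 per comparison, edgeR 0 to 740 and DESeq2 211 to 3135. The counts of the 3 methods are therefore not alike. With SAG, Dbx2 had log2 changes of 3.03 ± 1.57 from 0 to 10 nM in p0-1 (95% interval -0.13 to 6.20, adjusted p = 0.999 by limma) and -2.77 ± 1.57 from 10 to 100 nM in p2 (95% interval -5.94 to 0.40, 0.675). Exact permutation tests within days gave 0.13 and 0.215.

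The other changes of Dbx2 were as uncertain. At 10 nM SAG the log2 change of p0-1 against p2 was 0.51 ± 1.57 (95% interval -2.66 to 3.67, adjusted p = 1 by limma). Against NMPs, the day 4 p0-1 cells differed by 0.47 ± 2.01 (SE, adjusted p = 1 by limma), and all 3 NMP values lay within the range of the 5 p0-1 libraries. From day 4 to day 5 the change in p0-1 was -2.0 ± 1.67 (adjusted p = 0.794) and from day 5 to day 6 it was 2.54 ± 1.57 (0.789). In p2 these changes were 1.79 ± 2.01 (adjusted p = 1) and 0.80 ± 1.57 (0.91). The excess of p0-1 over p2 on days 5 and 6 less that on day 4 was -2.92 ± 2.36 (95% interval -7.67 to 1.83, adjusted p = 1 by limma).

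Dbx2 was not confined to the intermediate types on day 4. The p0-1 libraries of that day held 66.8 and 0 normalised reads at 0 nM and 225.9, 49.1 and 24.8 at 10 nM, while the pMN libraries held 0 and 60.8 at 100 nM and 143.4 and 54.3 at 500 nM. In p2 1 of 3 libraries had reads (31.1) and in p3 1 of 4 (42.9). p0-1 and pMN overlapped and had a log2 change of -0.18 ± 1.85 (95% interval -3.89 to 3.53, adjusted p = 1 by limma). pMN had reads in 3 of 4 libraries on day 4 and in 2 of 11 on days 5 and 6, a change between days that was not among the comparisons tested.

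Depth was set beside the detection of Dbx2. The 8 p0-1 libraries with reads detected 11829 to 13833 genes (median 13298) and the 4 without 11686 to 12492 (median 12264), ranges that overlapped. Total reads ran the other way, with medians of 9662733 with and 10492511 without Dbx2 reads. In p2 the medians were 12595 with and 12703 without reads. The part of depth in the zeros of Dbx2 was not tested.

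Levels were also divided by kilobases of exon, which corrects for annotated length and not for differences in amplification between the genes. Per kilobase, Dbx1 averaged 1090 ± 424 normalised reads in p0-1 on days 5 and 6 and Dbx2 35.9 ± 50.8 (n = 12). The fold between these means was 30.4. In p2 at 10 nM the levels per kilobase were 93.8 ± 74.2 for Dbx1 and 50.9 ± 53 for Dbx2 (n = 6). In p2 at 100 nM they were 0.374 ± 0.523 and 18.3 ± 40.1. On this scale Dbx1 exceeded Dbx2 in p0-1, and in p2 the spreads of the 2 genes overlapped.

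With the days and SAG concentrations of each type pooled, the ratio of the members within a library differed between p0-1 and p2. On days 5 and 6 Dbx1 was above Dbx2 in 12 of 12 p0-1 libraries, and in p2 it was above in 7 libraries, below in 3 and equal at 0 in the others. The log2 ratio, taken of normalised reads + 1, averaged 7.21 ± 3.55 (SD, n = 12) in p0-1 and 0.165 ± 3.74 (n = 12) in p2. The difference of 7.04 had a two-sided permutation p of 9e-05. At 10 nM SAG alone the difference was 3.78 and the exact permutation p was 0.0714.

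**Figure D4:**
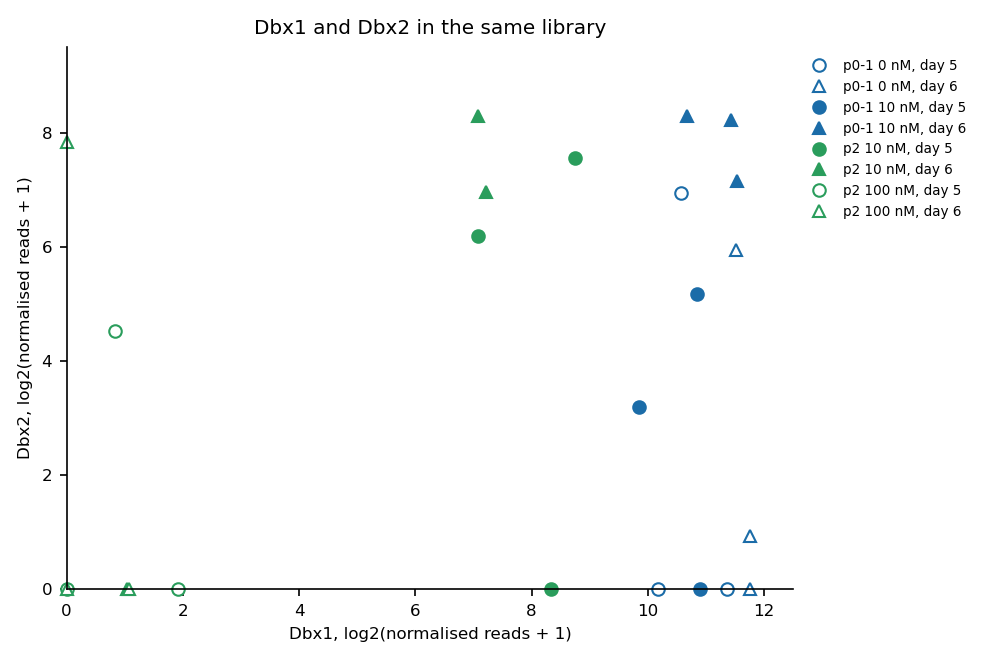
Each point is a p0-1 (blue) or p2 (green) library of day 5 (circles) or day 6 (triangles), by log2(normalised reads + 1) of Dbx1 on the horizontal and Dbx2 on the vertical axis; filled points are libraries at 10 nM SAG. All 12 p0-1 libraries lie at the right, over a wide range of Dbx2, and in p2 5 of the 6 libraries at 10 nM lie to the right of all 6 at 100 nM.

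Within a cell type no correlation of the 2 genes passed adjustment. Over the 17 p0-1 libraries of days 4 to 6, Pearson's r was -0.182 (permutation p = 0.481, adjusted 0.481) and Spearman's rho -0.107 (0.681, adjusted 0.681). The p0-1 libraries of day 4 lay apart from those of later days in Dbx1, and the p2 libraries of day 4 were all at 0. Correlations over all days therefore mix days in both types. Over the 12 p0-1 libraries of days 5 and 6, Pearson's r was -0.0168 (permutation p = 0.958) and Spearman's rho -0.0605 (0.854), with adjusted p-values of 0.958 and 0.854 over the 2 cell types. Without the 2 libraries farthest from the Dbx1 median r was -0.369. In p2 the values were positive. Over its 12 libraries of days 5 and 6 r was 0.488 (permutation p = 0.119, adjusted 0.238) and rho 0.274 (0.381, adjusted 0.763), with r at 0.644 without the 2 farthest. Over its 15 libraries of days 4 to 6 r was 0.498 (permutation p = 0.0575, adjusted 0.115) and rho 0.33 (0.226, adjusted 0.452), with r at 0.627 without the 2 farthest. Of 8 relations within a day or SAG concentration (n = 6 each, exact permutation tests), none passed adjustment over the 8. The smallest p was in p0-1 on day 6, where r was -0.7 (exact p = 0.0819, adjusted 0.656) and rho -0.943 (exact p = 0.0167, adjusted 0.133). On day 5 r was -0.192 (exact permutation p = 0.733) and rho -0.334 (0.533). On day 6 the 3 libraries at 10 nM held more Dbx2 than the 3 at 0 nM, and their Dbx1 (1636 to 2976) overlapped with that at 0 nM (2920 to 3475) only at its upper end. SAG and the relation between the genes cannot be told apart there. Over the 6 p2 libraries of 10 nM r was 0.522 (permutation p = 0.267) and rho 0.145 (0.778). Without the 2 libraries farthest from the median r turned to -0.97, so it rested on those 2. Over the 6 p2 libraries of 100 nM r was -0.31 (permutation p = 0.567) and rho -0.287 (0.6). Over all libraries and without regard to cell type, r between the members was 0.348 (n = 65), a description in which the points share cell types and days.

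Other genes of the dorsoventral code were counted from lists in p0-1 against p2 on days 5 and 6, where 0.322% of all genes were called. Of 7 ventral progenitor genes 2 were called, both lower in p0-1, with a median log2 change of -2.41 against 0.05 over all genes. They were Nkx6-1 (-6.95 ± 0.482, adjusted p = 8.37e-15 by limma) and Olig2 (-6.60 ± 0.789, 1.38e-07), which specifies the pMN. NKX6.1 separated these 2 types in the sort, so the call of Nkx6-1 is no finding between them. By the gates given above OLIG2 marked pMN and did not separate p0-1 from p2. At 10 nM SAG alone the change of Olig2 was -4.23 ± 1.12 and was not called (adjusted p = 0.214 by limma). Of 6 genes of the PAX6-expressing side of the neural tube 1 was called, higher in p0-1, namely Prdm12 (4.53 ± 0.839, adjusted p = 0.00122 by limma). Prdm12 had reads in 10 of 12 p0-1 and 4 of 12 p2 libraries.

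Of 14 dorsal progenitor genes 6 passed the filter on low values and 2 were called, both higher in p0-1, again beside 0.322% of all genes. They were Prdm13 (5.73 ± 0.676, adjusted p = 1.38e-07 by limma), a factor of dorsal interneuron progenitors, and Pax3 (4.07 ± 0.533, 1.04e-06), a dorsal paired-box gene. Pax3 was at 0 in all 6 p0-1 libraries of 10 nM and averaged 335 ± 228 in the 6 of 0 nM, a difference that was itself called (-8.14 ± 0.753 from 0 to 10 nM, adjusted p = 3.02e-10 by limma), while Dbx1 was present in all 12. The summed level of the 14 dorsal genes ran from 434 to 1376 in p0-1 at 0 nM and from 143 to 460 at 10 nM.

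In the lists of 7 V0 and V1 neuron genes, 8 genes of other ventral neurons, 6 pan-neuronal, 6 neural progenitor and 7 mesoderm genes, 0 genes were called in this contrast, out of 2, 5, 6, 6 and 5 that passed the filter. Evx1, which passed, was at 0 in every p0-1, p2 and pMN library of days 5 and 6. Among the V0 and V1 genes only Lhx1 could therefore be called. Of the V0 and V1 neuron genes, Lhx1, a LIM-homeodomain gene of interneurons, had reads in 7 of 12 p0-1 libraries (57.5 on average), Pax2 in 7, Lhx5 in 6, En1, which marks V1 neurons, in 5 and Foxd3 in 4. Evx1 and Evx2, which mark V0 neurons, averaged 0 in p0-1. Tubb3, a tubulin of young neurons, averaged 366 in p0-1 and 720 in p2 with overlapping values. At 10 nM SAG its values did not overlap (252 ± 175 in p0-1, 817 ± 170 in p2, n = 6 each), and the change was not called (-2.14 ± 1.21). The median log2 change of the 6 pan-neuronal genes in p0-1 against p2 was -1.60, against 0.05 over all genes. Sox2, the marker of the progenitor gate, averaged 1954 ± 629 in p0-1 and 1803 ± 514 in p2.

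Against pMN, where 0.96% of all genes were called, 5 of the 7 ventral genes were called lower in p0-1, among them the gate genes Olig2 (-11.12 ± 0.813, adjusted p = 2.1e-14 by limma) and Nkx6-1, and beside them Olig1, Nkx2-9 and Nkx6-2. Of the PAX6-side genes 3 were called higher, Prdm12 (6.79 ± 0.865, adjusted p = 2.32e-07 by limma), Irx3 (1.71 ± 0.334, 0.00088) and Gli3 (1.61 ± 0.307, 0.00063). Irx3 excludes motor neuron fate and Gli3 is a mediator of Shh signalling. The dorsal list again gave 2 higher, Prdm13 and Pax3. SAG differed between p0-1 and pMN here as well and cannot be told apart from cell type. Of the ventral neuron list 3 were lower in p0-1 (Isl1, Mnx1 and Lhx3, genes of motor neurons) and of the pan-neuronal list 1 (Elavl4), with 0 called in the remaining 3 lists.

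The genes whose pattern was most like that of Dbx1, by Pearson's r of log2(normalised reads + 1) over the 65 libraries, were Prdm16 (0.709), Prdm13 (0.706), Prdm12 (0.695), Scube2 (0.662) and Slf2 (0.647). On days 5 and 6 Prdm16 averaged 121 ± 127 normalised reads in p0-1, and its mean in each other type was 1.39 or less. Scube2, which encodes a secreted protein that aids Shh release, averaged 542 ± 487 in p2 (0 to 1509) beside 670 ± 404 in p0-1. Its mean log2 level was lower in p2 at 100 nM on day 6 (2.00) than in the other 3 p2 groups of days 5 and 6 (9.03 to 9.62). Slf2 was present in every type, with 2935 ± 923 in p0-1 and 1536 to 1659 on average elsewhere. Over the 25 group means 4 of the 5 genes were again among the 5 most alike, led by Prdm12 (0.83).

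For Dbx2 the genes most alike included Tma7 (0.531), Xlr4c (0.525), Slirp (0.498) and Gm6570 (0.485), all below the values reached for Dbx1. Tma7 and Slirp had reads in every library of days 5 and 6 and were not restricted to any type, with Tma7 at 3061 ± 1120 in p0-1 and 1591 ± 539 in p3. The points share cell types, days and libraries in these correlations, and they are descriptions without a test.

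**Figure D5:**
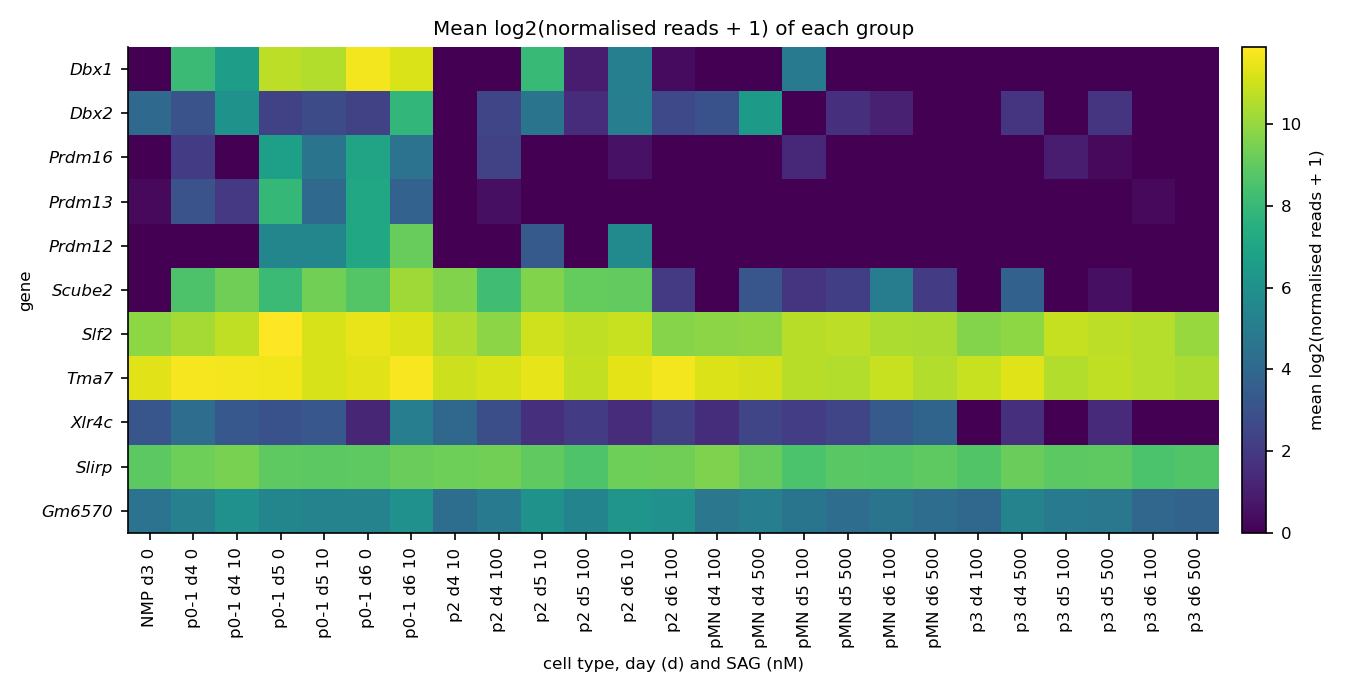
Colour gives the mean log2(normalised reads + 1) of a gene (rows) in each of the 25 groups (columns, by cell type, day (d) and SAG in nM). Rows are the 2 members, the 5 genes most like Dbx1 (Prdm16 to Slf2) and 4 of those most like Dbx2 (Tma7 to Gm6570). Prdm16, Prdm13 and Prdm12 were high mainly in p0-1, as Dbx1 was, whereas Tma7, Slirp and Gm6570 were present in all types and Xlr4c was at 0 in 4 of the 6 p3 groups.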

How the data were processed

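RNA was measured by full-length cDNA sequencing of fixed, sorted cells. The authors aligned reads with STAR in an nf-core pipeline to mm10 plus spike-ins, counted them with featureCounts on refGene, ignored duplicates, and removed libraries that failed quality criteria. The deposited values are a signal: the authors scaled each library's counts by its own size factor. The deposited annotation gives positions (other values). Whole reads were recovered, since 100% of values above 0 were whole multiples of the smallest in their column (tolerance 0.01). Recomputed size factors differed by 0%. Whether counting used strand is not given in the sources used here.

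Log2(value + 1) was fitted with limma 3.58.1 (R 4.3.3, intensity trend), with 25 group means over all 65 libraries (residual degrees of freedom 40). Genes averaging 10 or more (13964) were tested, with Benjamini-Hochberg adjustment over all of them. Groups were weighted equally within days and days equally. Groups at 0 in every library add no spread to the shared estimate, whereas groups that hold both zeros and high values raise it. An SE or interval within a cell type therefore does not measure the spread of that type alone. Ratios and correlations were tested with 100000 permutations. The 34 permutation tests of single comparisons are unadjusted and were chosen after the values were seen. The smallest p differs with group size. Replicates are described by the study as independent differentiations. The permutation tests and the main limma fit took all libraries as independent, although those with the same replicate number may share a differentiation. edgeR 4.0.16 and DESeq2 1.42.0 were run on recovered reads as alternatives, beside another pseudocount, other filters, quantile and TMM scaling, the compared libraries alone, a replicate block and each library left out. The fit was tested on simulated data. Floors of 3 reads cover counting error only, since amplified cDNA was sequenced without molecular identifiers.

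Named genes are the 2 members, at most 4 called genes per list with the largest change (otherwise those of highest mean), and the 5 genes most correlated with each member. Not every gene so chosen is reported here. Evx1, Evx2, Tubb3, other V0 and V1 neuron genes and the markers beside p2 and pMN were named after their values were seen, as were genes of a list beyond the first 4. The members and the 8 lists (61 genes) were chosen with earlier results of these data known.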

Additional observations from a re-analysis of the deposited data

Results flagged for a closer look

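Values were compared within each cell type and day, pooled over SAG, where 4 to 10 libraries allowed it (22 sets for the 2 genes). In 6 of these sets a library lay farther from the others than Dixon's 95% critical value allows. For normally spread values chance gives about 1 in 20 sets, a rate that does not hold for sets with many zeros. For Dbx1 it was the pMN library of day 5 at 100 nM with 288.5 normalised reads, beside another with 88.8 and 4 at 0. For Dbx2 it was a p0-1 library of day 5 at 0 nM with 122.3, where the next held 34.8. A pMN library had the only Dbx2 reads of its day both times, 27.2 on day 5 at 500 nM and 8.64 on day 6 at 100 nM. The same held for p3 at 500 nM, with 42.9 on day 4 and 42.1 on day 5. Where all other libraries of a set are at 0, a library with any read exceeds the critical value. A set at 0 in every library cannot be flagged.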

How the results depend on the processing

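Of 909 alternative values of the log2 changes, ratio and correlations, 853 kept their direction and side of the threshold. Leaving out any single library lost or gained no call. For Dbx1, calls were gained for p0-1 against p2 at 10 nM with a pseudocount of 10 (3.84) and for p0-1 on day 5 against day 4 with a pseudocount of 10 (3.15) or the compared libraries alone (3.23). Calls were lost for p2 at 100 against 10 nM after quantile normalisation (-4.87) and with the compared libraries alone (-5.95), for day 4 p0-1 against p2 (7.38) and pMN (7.38) with the compared libraries alone, and with edgeR for day 4 p0-1 against p2 (10.57) and p2 against p3 (6.59). The cause was not tested. The interaction of Dbx1 with day turned negative with quantile normalisation (-0.26), edgeR (-2.99) and DESeq2 (-2.26), and ran from -0.47 to 0.30 with a library left out. Leaving out the 2 pMN libraries of day 5 with Dbx1, chosen after seeing the data, gave p2 against pMN 3.61 (called) and pMN against p3 0.

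For Dbx2, DESeq2 called p0-1 against pMN (12.71) and p3 (17.43), p2 against pMN (13.01) and p3 (17.73), and day 4 p0-1 against p3 (11.7). Uncalled changes turned sign for p0-1 against p2 with edgeR (-0.32) and DESeq2 (-0.30), the same at 10 nM (-0.91 and -0.90), day 4 p0-1 against pMN (0.06 and 0.08), and pMN against p3 with quantile normalisation (-0.10). With a library left out, Dbx2 ran from -1.05 to 1.99 for day 4 p0-1 against NMP, -1.70 to 1.34 for day 4 p0-1 against pMN, -0.26 to 1.03 for p0-1 against p2, -0.77 to 1.31 for the same at 10 nM, -0.50 to 2.07 for p2 on day 6 against day 5, and -0.18 to 0.67 for pMN against p3. Dbx2 was not tested under the filter at a mean of 100.

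With the replicate block, 36 of 36 log2 changes of the members kept their call, such as 7.42 for Dbx1 in p0-1 against p2. The labels do not say whether the replicate number pairs libraries. In 3 of 186 same-number pairs the correlation of deviations was above 0.1 (0 of 358 other pairs). Median correlations ran from 0.0249 to 0.0431 in same-number sets and from -0.0236 to -0.0154 in the others. Of 60 libraries 54 correlated best with their own number on average. Libraries of the same number were thus slightly more alike. Genes called over the 18 comparisons ran from 0 to 840 (limma), 0 to 740 (edgeR) and 211 to 3135 (DESeq2), with 45, 23 and 632 in p0-1 against p2.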
